A study of Mus musculus with 4 samples.

Results

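The matrix-degrading metalloproteases and their inhibitors were examined in cultured vascular smooth muscle cells. The set comprised the genes of the matrix metalloproteases (MMPs), the ADAM and ADAMTS proteases, the ADAMTS-like proteins and the tissue inhibitors of metalloproteases (TIMPs). Members were chosen by gene symbol from the deposited expression table, which gave 83 of 25965 genes: 23 MMP, 32 ADAM, 19 ADAMTS, 5 ADAMTSL and 4 TIMP genes. All 4 libraries came from 1 group, wild type C57Bl/6 male mice of 8 to 14 weeks. Medial cells of the aorta had been freed with collagenase and elastase and grown for 3 to 5 passages in DMEM with 10% FCS. They are called libraries 1 to 4 below, in the order of the labels AR002, AR004, AR007 and AR016. The labels do not say whether each came from its own culture or animal, so the SD measures only the spread between these libraries, which may be technical. No treatment or tissue control was measured, so the comparisons are between genes within a library and between libraries.

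MMPs are zinc-dependent enzymes that cleave collagens, gelatin and other matrix proteins. Most are secreted as inactive precursors, and the membrane-type MMPs stay on the cell surface. ADAMs are membrane-anchored and release the outer parts of growth factors, receptors and adhesion molecules, although some members lack a working active site. ADAMTS proteins are secreted, bind the matrix through thrombospondin repeats, and include proteoglycan-cleaving enzymes and enzymes that trim procollagens. The ADAMTS-like proteins share the repeats but have no protease domain. TIMPs block the active site of these enzymes, and in the arterial wall the balance of both sides bears on remodelling, plaque stability and aneurysm.

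Levels are deposited log2 scaled reads, given as mean ± SD (n = 4). Single genes are ranked against each other per kilobase of exon, while family medians and read counts are given without division by length. The libraries held between 40342561 and 56793195 recovered reads on genes, and library 3 was the shallowest. A gene was called detected with a log2 level of at least 0 in 4 of 4 libraries, which took 22 to 30 reads. Of marker lists, the smooth muscle list had 8 of 8 genes detected. Markers of adventitial fibroblasts had 8 of 9 detected, endothelial cells 3 of 6, mesothelium 3 of 5, leukocytes 2 of 8, Schwann cells 1 of 4 and adipocytes 0 of 3. The T-cell gene Cd3e and the adipocyte gene Plin1 had no reads in any library.

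Among the 83 members 35 were detected (42.2%), against 47.4% of all genes of the table. A further 14 reached the threshold in 1 to 3 libraries, 14 had reads but stayed under it, and 20 were without a single read throughout. A count of 0 is compatible with up to 3 reads in that library, by counting error alone. TIMPs and ADAMTS-like genes were detected most often, with 3 of 4 and 4 of 5. They were followed by the membrane-type MMPs with 4 of 6, the ADAMTS genes with 10 of 19 and the other MMPs with 5 of 17. Of the 32 ADAM genes, 9 were detected. The median over TIMP genes was 12.37 ± 0.12, and over the ADAMTS-like genes 6.72 ± 0.11. It was 4.27 ± 0.63 for membrane-type MMPs, 1.34 ± 0.95 for ADAMTS, and -1.04 ± 1.24 for the other MMPs. The median over all genes of the table was 0.30 ± 0.36 and over all members 0.07 ± 0.66, both including genes without reads. Over the ADAM genes with a zinc-binding motif it was -2.31 ± 1.54, and over those without it -3.72 ± 1.63.

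**Figure D1:**
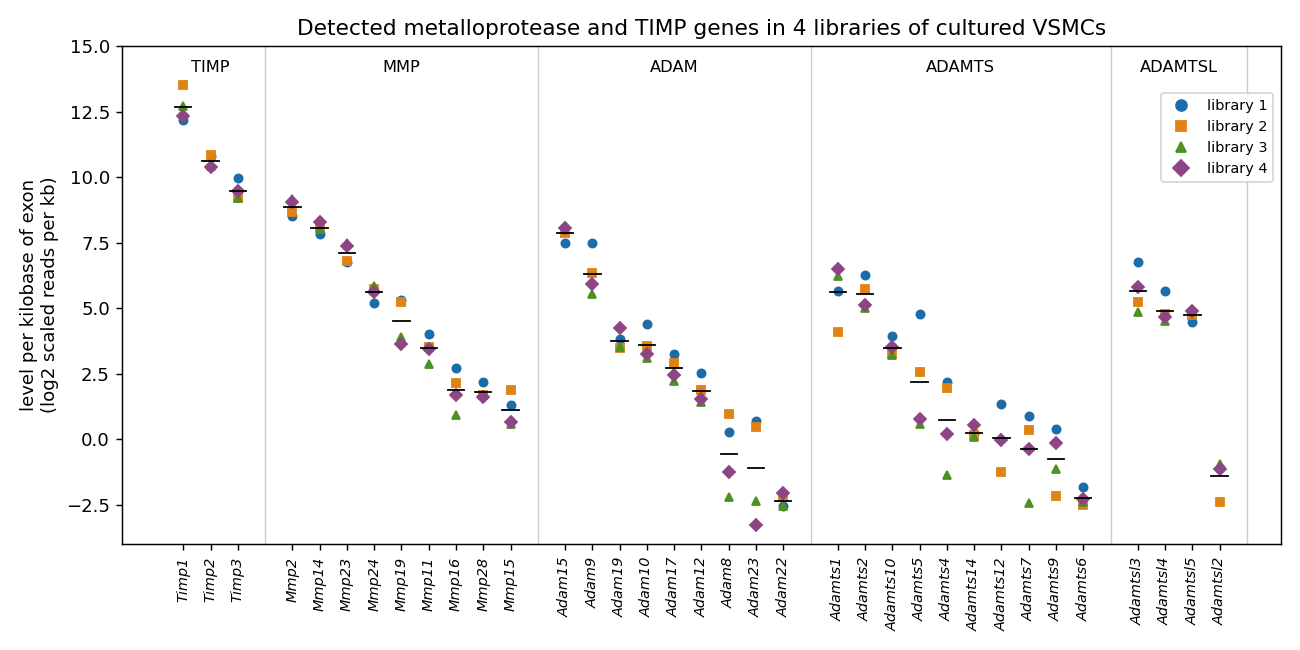
Level per kilobase of exon (log2 scaled reads per kb) of the 35 detected members in each of the 4 libraries, grouped by family, with a bar at the mean. Timp1 stands highest at 12.67, and Adam8, Adam23, Adamts4, Adamts5 and Adamts7 show widely separated points.

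Timp1, Timp2 and Timp3 had the highest levels of all members, with and without division by exon length. Timp1 (chromosome X, 20870166 to 20874735, GRCm38), a broad MMP inhibitor that also has growth-promoting activity, had levels of 11.99, 13.32, 12.53 and 12.16 in libraries 1 to 4. Library 2 was the highest and stood 1.34 log2 units above library 1, the lowest. Timp2 (chromosome 11, 118301069 to 118355740), which inhibits MMPs and also takes part in the activation of pro-MMP2 on the cell surface, had 12.77, 12.81, 12.37 and 12.36. Timp3 (chromosome 10, 86300372 to 86349506), the matrix-bound inhibitor that also blocks ADAM17 and several ADAMTS enzymes, had 12.97, 12.24, 12.24 and 12.48.

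The 3 genes had nearly equal reads but differ in length, so their levels per kilobase were 12.67 ± 0.59 for Timp1, 10.62 ± 0.25 for Timp2 and 9.46 ± 0.34 for Timp3. By this measure Timp1 had rank 6, Timp2 rank 51 and Timp3 rank 127 among detected genes with an annotated length. Timp1 exceeded Timp3 by 3.21 ± 0.88 log2 units per kilobase in 4 of 4 libraries, and Timp2 minus Timp1 was -2.06 ± 0.56. Without division by length these differences were 0.02 and 0.08, and with coding length they were 0.06 and -0.02, with mixed signs over the libraries. The order of the 3 TIMP genes therefore rests on their exon lengths of 888, 3896 and 8144 bases for Timp1, Timp2 and Timp3, whose coding lengths are 615, 660 and 633. Timp1 provided 73.4% ± 8.76 of the summed TIMP level per kilobase, with 62.1%, 82.6%, 77.4% and 71.5% in libraries 1 to 4. With coding length its share was 34.5% ± 10.8, beside 32.7% ± 1.99 for Timp2 and 32.8% ± 8.94 for Timp3. Library 2 gave Timp1 its highest share and library 1 its lowest under each length.

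Timp4, the inhibitor gene known for restricted expression in heart and other tissues, had 14, 1, 52 and 42 reads and reached the threshold in libraries 3 and 4 only. It was the single TIMP gene that was not detected, and it was lowest in library 2, where Timp1 was highest.

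Timp1, Timp3 and Timp4 lie at synapsin genes on the opposite strand, and although the library kit keeps the strand, no source used here says whether the counting did. Syn3, a synapsin gene known from neurons, shares 1733 exon bases with Timp3 in GENCODE M21, 21.3% of the Timp3 exon length. Syn3 had levels of 11.86, 11.35, 11.26 and 11.55, highest in library 1 as Timp3 was. Syn1 around Timp1 shares no exon base with it. Whether reads from the shared exon bases were assigned to the right gene is not known. BC100451 overlaps Timp2 and averaged 5.44 ± 0.81, and its shared exon bases were not determined.

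Among the MMPs, 4 genes carried most of the signal. Mmp2 (chromosome 8, 92827328 to 92853417), the constitutive gelatinase, had levels of 10.26, 10.41, 10.91 and 10.80. Mmp14 (chromosome 14, 54431604 to 54441258), the membrane-type collagenase that activates pro-MMP2, had 10.42, 10.68, 10.60 and 10.87. On the deposited scale neither of these genes varied by more than 0.65 log2 units between libraries. With median-ratio scaling of the libraries the SD of Mmp2 was 0.57, against 0.31 on the deposited scale.

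Per kilobase Mmp2 stood at 8.84 ± 0.31 (rank 212) and Mmp14 at 8.07 ± 0.19 (rank 377). Mmp14 minus Mmp2 was -0.78 ± 0.25 with 1 sign in 4 libraries, but the sign turned with coding length in place of exon length (0.23 ± 0.25) and without length (0.05 ± 0.25). Their order is therefore not settled by these data. Mmp2 took 46.7% ± 4.41 of the summed MMP level per kilobase and Mmp14 27.3% ± 2.38. With coding length the shares were 34.9% ± 3.87 and 40.8% ± 2.90, and without length 39.4% ± 4.28 and 40.6% ± 2.95.

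Mmp23, an atypical MMP whose propeptide holds a membrane anchor, followed at 7.10 ± 0.39 per kilobase and 14.0% ± 2.14 of the sum. Its levels of 7.97, 8.02, 8.71 and 8.61 were higher in libraries 3 and 4. Mmp24, the membrane-type enzyme known mainly from the nervous system, had 7.44, 7.95, 8.08 and 7.84. BC029722, on the opposite strand, overlaps 637 exon bases of Mmp24 (13.6%) and averaged 8.59 ± 0.20. The part of its reads in the Mmp24 level was not tested.

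The other detected MMP genes were lower. Mmp19, a basement membrane-degrading enzyme, had 7.15, 7.07, 5.71 and 5.47, with libraries 1 and 2 above the others. Of its exon length 22.3% coincides with Tmem198b on the opposite strand, which averaged 6.34 ± 0.38. Tmem198b had levels of 6.59, 6.74, 6.12 and 5.93, also higher in libraries 1 and 2. The part of its reads in the Mmp19 level was not tested. Mmp11, the stromelysin first described in tumour stroma, had 5.49, 5.00, 4.33 and 4.93. The membrane-type gene Mmp16 had 5.83, 5.26, 4.05 and 4.82, and Mmp15, of the same class, 3.76, 4.32, 3.00 and 3.10. All 3 were lowest in library 3, as was the median over all detected genes (4.78). Mmp28, encoding epilysin, averaged 3.75 ± 0.25, and 466 of its exon bases coincide with 1700020L24Rik on the opposite strand (2.81 ± 0.43). Mmp17, another membrane-type gene, had 151, 71, 21 and 181 reads and missed the threshold in library 3. Mmp14 exceeded Mmp15 by 6.96 ± 0.69 log2 units per kilobase. Under the threshold stood the leukocyte membrane-type gene Mmp25, with 6, 1, 0 and 0 reads, and Mmp21, with 1, 0, 0 and 3.

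The gelatinase of leukocytes and activated cells, Mmp9, had 7, 2, 11 and 8 reads against 35755, 39463, 42444 and 52332 for Mmp2. Pooled, Mmp2 had 6071 reads for each Mmp9 read, and counting error alone puts this ratio between 4201 and 9137 (95%, exact binomial). In library 2, with 2 Mmp9 reads, the ratio was 19732 (5462 to 162935). In every library Mmp2 minus Mmp9 per kilobase was at least 11.98 log2 units.

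**Figure D2:**
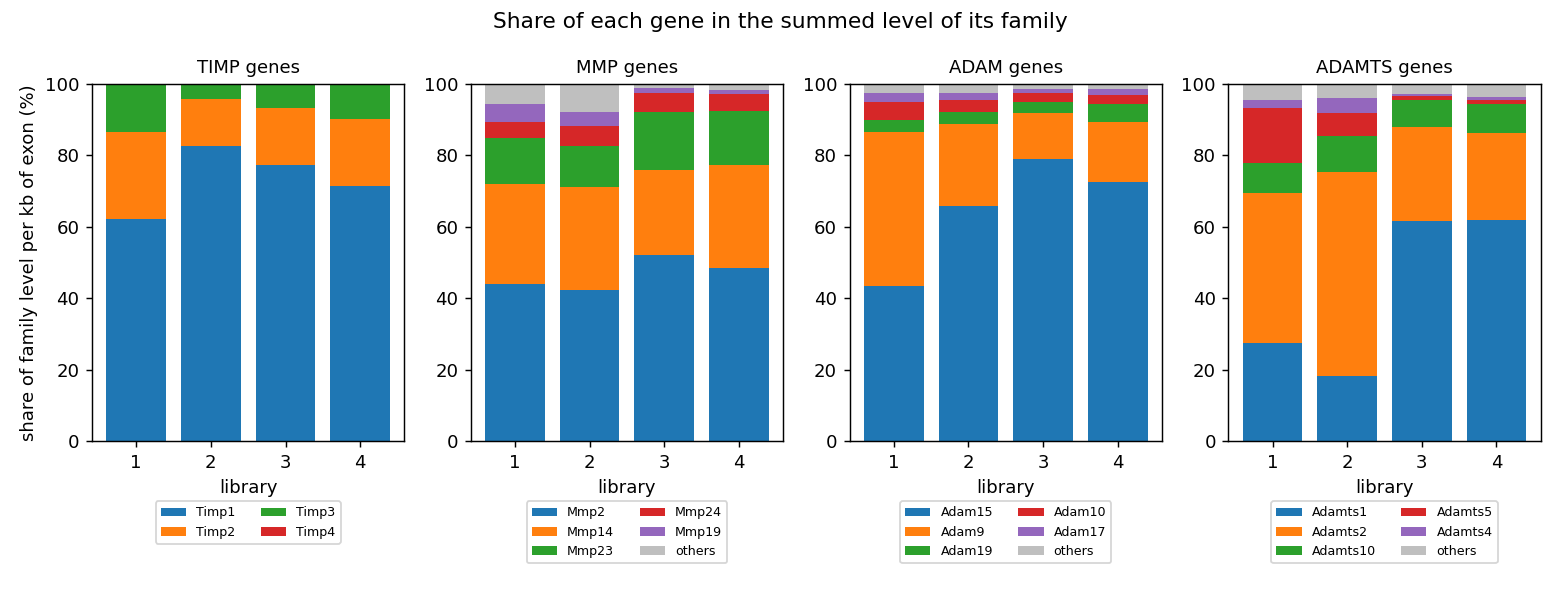
Share (%) of each gene in the summed level per kilobase of exon of its family, by library, for TIMP, MMP, ADAM and ADAMTS genes; the 5 genes with the largest mean share are named and the rest are grey. With exon length Mmp2 held 42.3% to 52.1% of the MMP sum (31.3% to 39.9% with coding length), while Adam15 ranged from 43.4% to 78.9% and Adamts1 from 18.4% to 61.9%.

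The 10 MMP genes of chromosome 9 lie side by side over 427 kb (7272514 to 7699585) and include the interstitial collagenases, stromelysins, matrilysin and the macrophage elastase. None was detected in 4 of 4 libraries, but together they had 980, 2895, 39 and 27 reads. The stromelysin 1 gene Mmp3 had counts of 785, 2492, 13 and 6 and was far higher in libraries 1 and 2. Mmp13, the main rodent collagenase, had 101, 332, 10 and 16, and Mmp10, encoding stromelysin 2, 48, 29, 0 and 0. Both followed Mmp3 in being higher in libraries 1 and 2. The elastase gene Mmp12 had 35, 16, 8 and 5 reads and Mmp27 11, 22, 8 and 0. Mmp1b, which shares 157 exon bases with Mmp12 on the opposite strand, had 4 reads in library 2 only, and the remaining 4, Mmp1a, Mmp7, Mmp8 and Mmp20, had none.

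**Figure D3:**
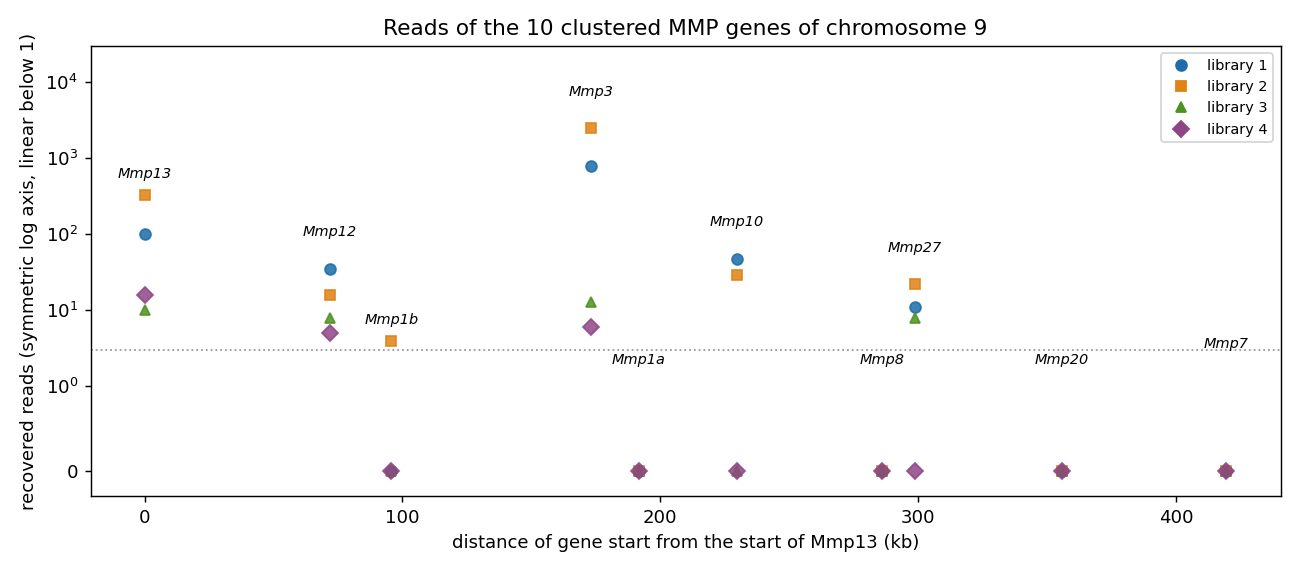
Recovered reads (symmetric log axis) of the 10 MMP genes of chromosome 9 against the distance of each gene start from that of Mmp13 (kb), by library; the dotted line marks 3 reads. Mmp3, Mmp13 and Mmp10 lie higher in libraries 1 and 2 than in libraries 3 and 4, and 4 genes sit at 0 in every library.

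Promoters of several of these genes are known to hold an AP-1 site close to the start. The letters TGANTCA, which read the same on both strands, were searched for in the RefSeq windows of 250 bases before to 50 after each start (GRCm38.p6). They were present in windows of 8 of these 10 genes, against 4 of 42 other members with a window. Counted by window, this was 8 of 12 against 4 of 45, beside 7.81% of all 32851 windows. The search allowed any base at N, and the match in Mmp20 read TGAATCA. The 150 bases before the start are shown for 4 genes with reads and for Mmp7, which had none, with the matched letters in capitals; all are on the plus strand.
Mmp13 (chr9:7272364-7272513): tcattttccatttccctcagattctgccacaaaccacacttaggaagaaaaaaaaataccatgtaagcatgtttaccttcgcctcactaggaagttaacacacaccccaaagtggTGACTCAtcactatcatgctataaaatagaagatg
Mmp12 (chr9:7347224-7347373): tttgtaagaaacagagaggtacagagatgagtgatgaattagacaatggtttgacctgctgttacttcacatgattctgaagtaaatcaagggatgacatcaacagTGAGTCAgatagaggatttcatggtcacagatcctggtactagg
Mmp3 (chr9:7445672-7445821): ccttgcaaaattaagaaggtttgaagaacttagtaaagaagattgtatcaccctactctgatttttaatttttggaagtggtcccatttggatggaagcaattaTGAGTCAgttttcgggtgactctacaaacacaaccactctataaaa
Mmp10 (chr9:7502192-7502341): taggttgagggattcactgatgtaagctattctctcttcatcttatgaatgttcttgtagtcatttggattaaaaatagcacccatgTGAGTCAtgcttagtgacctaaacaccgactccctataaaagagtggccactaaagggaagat
Mmp7 (chr9:7691940-7692089): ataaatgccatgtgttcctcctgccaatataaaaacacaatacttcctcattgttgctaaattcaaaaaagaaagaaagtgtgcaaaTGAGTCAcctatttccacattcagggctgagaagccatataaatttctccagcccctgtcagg
The match began 46 bases before the start in Mmp3, 35 in Mmp13, 44 at the downstream start of Mmp12, and 63 in both Mmp10 and Mmp7. Mmp12 has another RefSeq start further upstream, and Mmp7 another further downstream, whose windows held no match. The letters were thus present in a gene with 2492 reads in library 2 and in genes with none. A match describes the sequence and does not show a bound site.

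Of the ADAM genes, Adam15 and Adam9 stood highest, and 13 had no reads. A translated search of the GENCODE M21 coding transcripts found the histidine-containing zinc-binding motif of an active metalloprotease in 19 of 32 genes. Of these 19, 7 were detected and 9 had no reads, and of the 13 genes without the motif 2 were detected and 4 had no reads. Genes without reads included Adam24, Adam25, Adam26a, Adam26b, Adam34 and Adam39 of chromosome 8, a group known for expression in testis. The others were Adam1b, Adam21 and Adam30 with the motif, and Adam6a, Adam6b, Adam7 and Adam29 without it.

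Adam15 (chromosome 3, 89338542 to 89349996), which carries an integrin-binding disintegrin domain, was the highest ADAM gene. Its levels of 10.10, 10.48, 10.77 and 10.67 differed by 0.67 at most, and per kilobase it stood at 7.89 ± 0.29 (rank 435). With median-ratio scaling its SD was 0.56. Adam9 (chromosome 8, 24949611 to 25016922), a broadly expressed sheddase, had 9.51, 8.37, 7.59 and 7.98. Library 1 was highest for Adam9 and lowest for Adam15, and the share of Adam15 in the summed ADAM level per kilobase was 43.4%, 65.9%, 78.9% and 72.4%.

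The principal sheddases were lower. Adam10, which cleaves Notch receptors and cadherins, had 6.70, 5.87, 5.40 and 5.53, and Adam17, which releases TNF and ligands of the EGF receptor, 6.08, 5.76, 5.08 and 5.29. Both were highest in library 1 and lowest in library 3, as was the median over all detected genes (5.49 and 4.78). Adam10 exceeded Adam17 by 0.87 ± 0.22 log2 units per kilobase, and Adam9 exceeded Adam10 by 2.74 ± 0.25. Adam17 minus Timp3, its inhibitor gene, was -6.75 ± 0.33. Iah1, on the opposite strand, shares 4.35% of the Adam17 exon length and averaged 6.48 ± 0.28.

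Adam19, the meltrin beta gene linked to heart development, averaged 6.59 ± 0.35 and was highest in library 4 (7.07). Gm16033 and Gm16034, on the opposite strand, share 8.25% and 6.75% of its exon length and averaged 4.13 ± 0.52 and 3.54 ± 0.48. Adam12, meltrin alpha, associated with mesenchymal and regenerating muscle cells, averaged 5.24 ± 0.49, and Adam12 minus Adam19 was -1.92 ± 0.61 per kilobase. Adam8, a sheddase of leukocytes, had 162, 262, 22 and 57 reads, more in libraries 1 and 2. Its 22 reads in library 3 only just met the threshold there, so 1 read fewer would leave it undetected. Gm16201, on the opposite strand, shares 46 exon bases with Adam8 and had 54, 58, 79 and 50 reads. Adam28, also known from lymphocytes, had 9, 15, 0 and 10.

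Among ADAMs without the motif, Adam23, a neuronal adhesion protein that binds integrins, had levels of 4.86, 4.63, 1.81 and 0.90. Libraries 1 and 2 lay at least 2.82 log2 units above the others. Adam22, its close relative, was steady at 1.51 ± 0.25. ADAM genes at the margin of detection were Adam33 with 31, 31, 18 and 24 reads, Adam11 with 96, 51, 32 and 16, Adam32 with 41, 17, 15 and 24, Adam5 with 86, 19, 62 and 100, and Adam1a with 60, 11, 31 and 75. Adam1a shares 24.0% of its exon length with Mapkapk5 on the same strand, so its reads are uncertain. Under the threshold were Adam4 with 9, 15, 0 and 14 reads, and the testis genes Adam2, Adam3 and Adam18, none with more than 11.

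ADAMTS genes were led by a proteoglycanase and a procollagen peptidase. Adamts1 (chromosome 16, 85793827 to 85803113), which cleaves versican and aggrecan, had levels of 8.06, 6.50, 8.63 and 8.89, with library 2 the lowest. Adamts2, which removes the amino propeptide of type I procollagen, had 9.49, 8.94, 8.22 and 8.36. Per kilobase the pair lay close together, at 5.61 ± 1.07 and 5.53 ± 0.58, and they supplied 42.3% ± 22.7 and 37.4% ± 15.2 of the ADAMTS sum. With coding length these shares were 35.3% ± 21.5 and 41.2% ± 13.7, so their order over the means turned. Adamts1 held the larger share in libraries 3 and 4 and Adamts2 in libraries 1 and 2, under either length.

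The other procollagen peptidases were low. Adamts2 exceeded Adamts14 by 5.28 ± 0.65 log2 units per kilobase. Adamts3 had 27, 21, 16 and 0 reads. Adamts2 exceeded it by 8.82, 8.62 and 7.90 in libraries 1 to 3, and in library 4 the 0 reads give a bound of at least 10.87 at 3 reads (at least 1876-fold higher). With the deposited floor the mean was 9.49 ± 2.12, and without library 4 it was 8.44.

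The aggrecanases differed between libraries. Adamts5 (chromosome 16, 85858170 to 85901125), adjacent to Adamts1, had 8.23, 5.99, 4.00 and 4.19, and Adamts4 had 4.44, 4.22, 0.90 and 2.48. Both were higher in libraries 1 and 2, whereas Adamts1 was highest in libraries 3 and 4. Adamts1 exceeded Adamts4 by 3.48, 2.14, 7.59 and 6.27 per kilobase in libraries 1 to 4. The mean of 4.87 ± 2.50 was 5.78 without library 2 and 3.96 without library 3. Adamts5 exceeded Adamts4 by 1.43 ± 1.02.

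Of the remaining ADAMTS genes, Adamts10, which associates with fibrillin microfibrils, had 6.98, 6.28, 6.24 and 6.58. Adamts6 was detected at a low level, 0.72 ± 0.30. Adamts12 had 808, 134, 249 and 319 reads, Adamts7, a cartilage oligomeric matrix protein-cleaving enzyme linked to coronary disease, 341, 235, 26 and 142, and Adamts9 577, 98, 152 and 402. Library 2 was lowest for Adamts9 and Adamts12, and library 3 for Adamts7, near the 22 reads needed there. Tbc1d2b, on the opposite strand, shares 122 exon bases with Adamts7 (1.94%) and had 2829, 1635, 617 and 1260 reads. The part of Tbc1d2b reads in the Adamts7 level was not tested. Adamts8 had 38, 20, 30 and 103 reads and Adamts15 146, 21, 70 and 116, and both missed the threshold in library 2. Adamts13, the von Willebrand factor-cleaving protease of liver, had 2 reads in library 2 only. Adamts17 had 9, 18, 3 and 3 and Adamts20 6, 2, 0 and 0. Adamts16, Adamts18 and Adamts19 had none.

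ADAMTS-like genes reached similar levels per kilobase as the highest ADAMTS genes. Adamtsl3 had levels of 9.70, 8.20, 7.81 and 8.76 (5.66 ± 0.82 per kilobase). Adamtsl4, a fibrillin-binding protein gene mutated in inherited lens dislocation, had 7.73, 6.87, 6.59 and 6.72, and Adamtsl5 had 6.71, 6.96, 7.17 and 7.12. Library 1 was thus the highest for Adamtsl3 and Adamtsl4 and the lowest for Adamtsl5. Adamtsl2, which also binds fibrillin, was low at 1.60 ± 0.67, and Adamtsl1 had 41, 4, 5 and 22 reads.

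Inhibitor transcripts exceeded protease transcripts in each library when levels per kilobase were summed over families. The TIMP sum was 8.88, 14.6, 7.84 and 6.61 times the MMP sum in libraries 1 to 4. It was 25.3 ± 9.98 times the ADAM sum and 78.0 ± 50.5 times the ADAMTS sum. The TIMP to MMP ratio was 12.96 ± 3.34 with coding length and 4.70 ± 1.22 without length, and TIMP sums exceeded the sum of each protease family in each library under these lengths too. Timp1 alone was 5.52, 12.05, 6.07 and 4.72 times the MMP sum, Timp2 1.64 ± 0.48 times and Timp3 0.75 ± 0.30 times. With coding length these means were 4.49 ± 2.10, 4.25 ± 1.19 and 4.22 ± 1.63, so the ranking of the 3 genes appears only with exon length. Timp3 was 1.91 ± 0.34 times the ADAM sum and 5.39 ± 0.74 times the ADAMTS sum (11.2 ± 2.52 and 30.3 ± 2.67 with coding length). Library 2, with the highest Timp1, had the highest TIMP ratio to each protease family. Among single pairs, Timp2 exceeded Mmp14 by 2.55 ± 0.38 and Mmp2 by 1.77 ± 0.55 log2 units per kilobase. These ratios compare transcripts, not protein or activity.

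**Figure D4:**
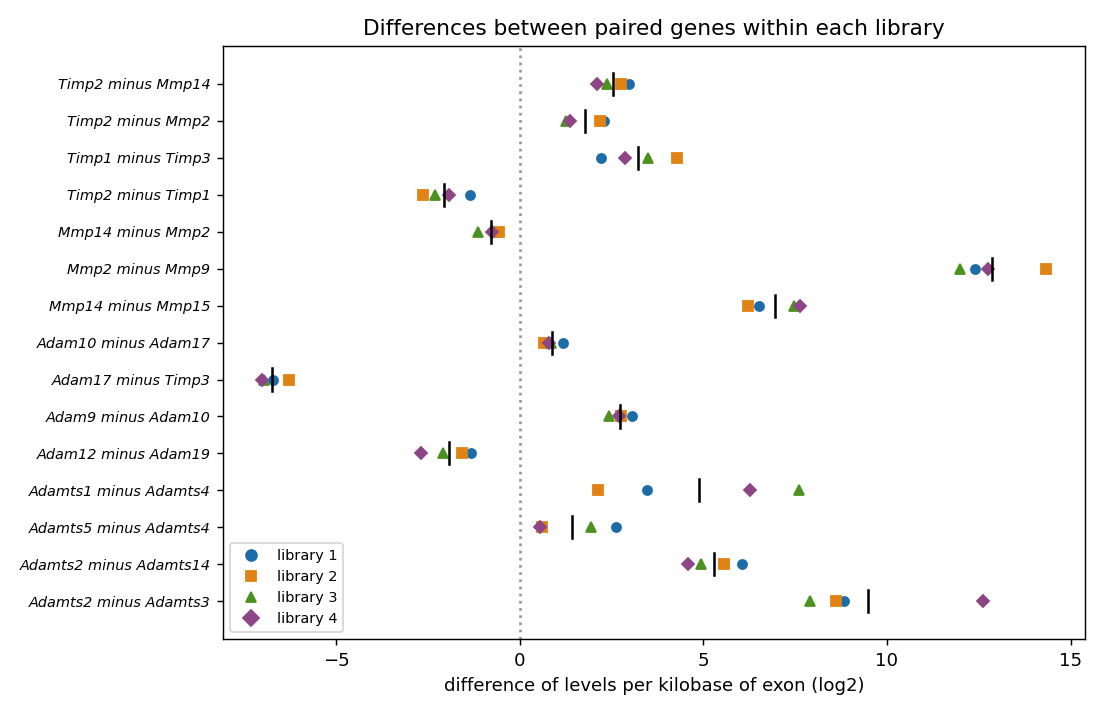
Differences of levels per kilobase of exon (log2) between the genes of 15 pairs in each of the 4 libraries, with a bar at the mean and a dotted line at 0. In each pair the 4 libraries lie on 1 side of 0; the library 4 point of Adamts2 minus Adamts3 uses the floor value of a gene without reads.

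With exon length all 15 pair differences had 1 sign in 4 of 4 libraries. With coding length or without length 12 did, and Timp1 minus Timp3, Timp2 minus Timp1 and Mmp14 minus Mmp2 had mixed signs. Each of the 15 differences with exon length had p = 0.125 by an exact permutation of signs (two-sided). The adjusted p was 0.125 over these 15 tests (Benjamini-Hochberg). This is the smallest p that 16 sign arrangements of 4 libraries allow, so none could pass 0.05.

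The spread between libraries was set beside that of all detected genes, without a test of the difference. Of 35 detected members 18 (51.4%) had an SD above 0.5, against 40.5% of all detected genes, and 8 had an SD above 1, against 5.8%. The median SD was 0.52 for the members and 0.43 for all detected genes. These 8 were Adamts1, Adamts4, Adamts5, Adamts7, Adamts9, Adamts12, Adam8 and Adam23, so 6 of the 10 detected ADAMTS genes were among them. Without library 2, 5 of these 8 stayed above 1 and Adamts1 (0.43), Adamts9 (0.77) and Adamts12 (0.77) did not. Adamts12 was also under 1 without library 1 (0.73) and Adamts7 without library 3 (0.64). With median-ratio scaling 7 of the 8 stayed above 1, and Adamts12 was at 0.99. Library 1 was the highest for 13 of the 18 genes and for 66.2% of all variable detected genes. With median-ratio scaling, which shifts libraries 1 to 4 by 0.32, 0.10, -0.30 and -0.12 on the log2 scale, 18 members again exceeded 0.5, of which 13 were shared. Mmp2, Mmp23, Mmp24, Adam15 and Mmp17 entered, the last because it then passed detection. Adam10, Adamts2, Adamtsl4, Mmp15 and Mmp16 left.

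The adventitial fibroblast and leukocyte marker lists moved with some of these members. The summed level of the 9 adventitial fibroblast markers was 11.00, 10.38, 8.54 and 8.64 (log2) in libraries 1 to 4, with Dpt at 7.15, 7.02, 2.32 and 1.92, and none of the 9 was without reads. Libraries 1 and 2 were thus highest both for these markers and for Mmp3, Mmp13, Mmp10, Mmp19, Adam8, Adam23, Adamts4, Adamts5 and Adamts7. These names were picked, and the share of all genes with this pattern was not counted. Timp2, Adam9, Adam10, Adam12, Adam17, Adamts2, Adamtsl4, Mmp11, Mmp15 and Mmp16 had it too. So did the median over all detected genes, at 5.49, 5.22, 4.78 and 4.95. Mmp2, Mmp23, Adam15, Adamts1 and Adamtsl5 were higher in libraries 3 and 4. The summed smooth muscle markers were lower in libraries 1 and 2, at 13.58, 13.15, 14.62 and 14.89. Leukocyte markers summed to 5.92, 5.48, 3.76 and 3.72, with Ptprc at 13, 27, 0 and 12 reads. Most of this sum came from Lyz2 (927, 441, 68 and 39 reads) and Csf1r (564, 581, 187 and 296). Cd68 was highest in library 3, with levels of 0.75, 0.28, 0.93 and -0.48, and Cd3e had no reads. Endothelial markers summed to 5.58, 4.93, 5.43 and 4.00, and mesothelial markers to 6.17, 5.97, 6.42 and 6.23. Neither list was higher in both libraries 1 and 2 than in libraries 3 and 4. Schwann cell markers summed to 6.62, 6.69, 8.75 and 7.97, higher in libraries 3 and 4. The part of these marker values in the members' results was not tested, and in bulk RNA fewer cells of a type and less RNA per cell cannot be told apart.

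**Figure D5:**
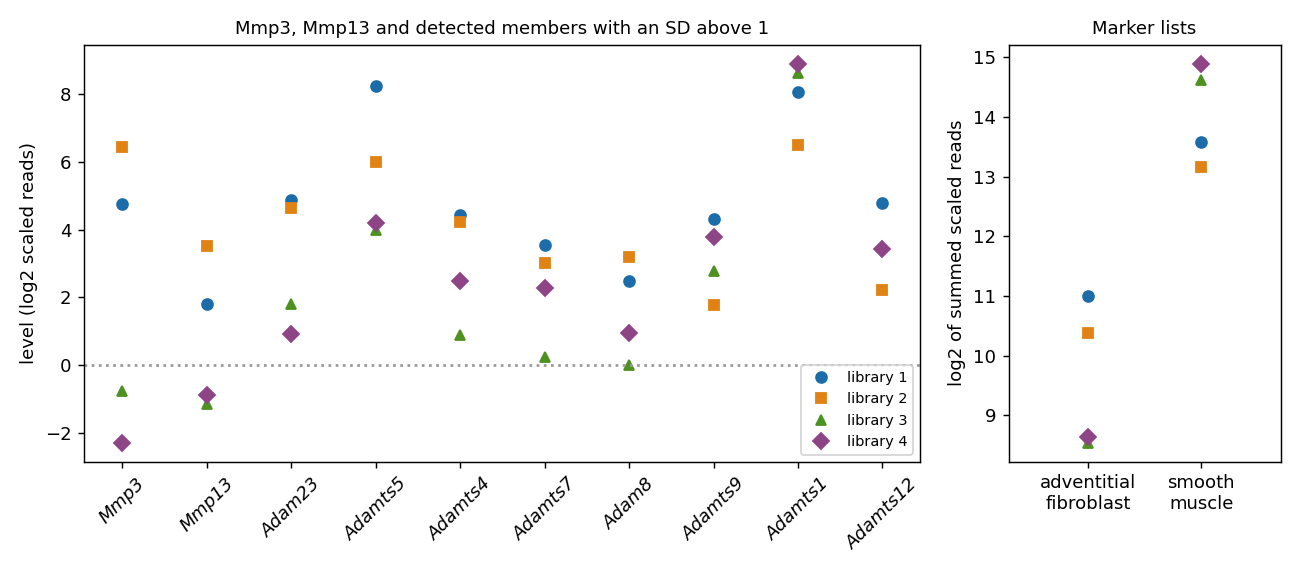
Left, levels (log2 scaled reads) in each library of Mmp3, Mmp13 and the 8 detected members with an SD above 1; the dotted line is the detection threshold. Right, log2 summed scaled reads of the adventitial fibroblast and smooth muscle marker lists: libraries 1 and 2 are higher for the first and lower for the second.

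Other genes of the same pathways were counted beside the 47.4% of all genes that were detected. Of 17 regulators of MMP activity 13 were detected, led per kilobase by Bsg, which encodes the MMP-inducing membrane protein basigin (10.70 ± 0.26), Sdc1 (6.43 ± 0.39) and the clearance receptor gene Lrp1 (6.34 ± 0.78). Partners of ADAM10 and ADAM17 had 7 of 9 detected, led by Tspan17 (6.01 ± 0.58), Frmd8 (5.20 ± 0.35) and the iRhom gene Rhbdf1 (4.51 ± 0.27). Shed substrates of ADAMs had 16 of 19 detected, with Axl (7.47 ± 0.68), App (7.01 ± 0.42) and Tnfrsf1a (6.08 ± 0.63) highest, while Tnf had 3, 0, 0 and 0 reads.

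Substrates of ADAMTS enzymes had 11 of 13 detected, with Thbs1 (10.06 ± 0.87), Fn1 (9.99 ± 0.63) and Bgn (9.81 ± 0.42) highest per kilobase. Vcan, encoding the proteoglycan versican, had 879, 1631, 117 and 191 reads, and Acan, encoding aggrecan, 2866, 319, 911 and 3261; both were named after their values were seen. Vcan was higher in libraries 1 and 2, as Adamts4 and Adamts5 were. Acan was lowest in library 2, as Adamts1 and the summed smooth muscle markers were. Comp, encoding cartilage oligomeric matrix protein, went against its enzyme gene Adamts7. Its levels of 9.64, 9.21, 12.38 and 12.04 were higher in libraries 3 and 4, where Adamts7 was lower. These comparisons were picked from the 13 substrates and were not tested. Of 14 related proteins outside these families 7 were detected, near the share of all genes, led by Pcolce (7.72 ± 0.10), Ece1 (6.63 ± 0.30) and the procollagen C-proteinase gene Bmp1 (5.65 ± 0.40).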

How the data were processed

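RNA of 4 libraries was sequenced after TruSeq Stranded mRNA preparation, per the labels' protocols. The submitters' processing notes list TopHat, Trim Galore, cutadapt and the build GRCm38. The counting tool, its annotation and its use of strand remain unstated in these sources. The deposited values are log2 of reads per gene times a constant of each library, made by the authors without division by length. Whole reads were recovered from the value of 1 read (0.0344, 0.0346, 0.0455 and 0.0340), and in each library 99.8% of the values gave whole reads to a tolerance of 0.05. A gene with no reads holds the value of 0.9 read. Intervals cover counting error only.

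Exon and coding lengths came from GENCODE M21 (94.6% of genes, all 83 members), and promoter windows from RefSeq for 52 members. Pair differences used an exact sign-flip permutation test. The motif in ADAM genes was searched in GENCODE transcripts, because no protein table was used here. The members, lists and pairs were chosen with earlier results of these data known. Named genes were all TIMPs, the genes of the pairs, the 12 other detected members highest per kilobase, detected members with an SD above 1, members reaching the threshold in 1 to 3 libraries, and the 3 genes of each list highest per kilobase. Other members and list genes were added after their values were seen. Alternatives were other thresholds, median-ratio scaling, list means, other lengths, a 3-read floor and leaving out each library. The recovery of reads and the calling of genes with an SD above 1 were tested on simulated data. The spread planted there was larger than that of any detected member, and Adam8 and Adamts7 lay below the levels used. The simulation therefore does not show how often genes with a smaller spread or level are called. Scripts ran in Python 3.11.15 with matplotlib 3.10.9, biopython 1.88, pandas 2.3.3, scipy 1.17.1 and numpy 2.4.6.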

Additional observations from a re-analysis of the deposited data

Results flagged for a closer look

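Of 66 gene levels, family medians and pair differences examined, 3 had 1 library far from the other 3, and chance alone picks about 1 in 20. Adam5 was low in library 2 at -0.61, with 19 reads against 62 to 100 in the others. Adamts3 stood at -5.03 in library 4, the value given to a gene without reads there, against 16 to 27 reads in the others. The median of the ADAM genes with the zinc-binding motif was -4.61 in library 3, likewise the value of a gene without reads in that library, which was the shallowest.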

How the results depend on the processing

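The count of detected members (35) was 27 and 44 at thresholds of 2 and -2, 36 with median-ratio scaling and 35 to 39 without 1 library. With members found to share exon bases left out, it was 26 of the 69 that remained. The overlaps of Timp2 with BC100451 and Adam22 with AC140364.1 could not be determined. The count with an SD above 0.5 (18) was 8 at an SD above 1, 45 with no filter on low values, and 13 to 22 without 1 library. Family levels moved by more than their SD when the mean replaced the median for ADAMs with the motif (-0.12), ADAMTS-like genes (4.59) and TIMPs (9.13, through Timp4). Per kilobase the medians were -4.97 for ADAMs with the motif, -1.42 for ADAMTS, 4.59 for ADAMTS-like genes, 10.04 for TIMPs, 1.49 for membrane-type MMPs and -2.90 for the other MMPs. Division by length changes the scale of these values. Timp1 minus Timp3 was 0.016 without length and 0.058 with coding length, with mixed signs. Timp2 minus Timp1 reversed without length (0.078), and Mmp14 minus Mmp2 reversed without length (0.045) and with coding length (0.23). Coding length, the shares under other lengths and the exon overlap count were chosen after seeing the data, and the planned length from RefSeq proteins was not run. No paired analysis was possible because all libraries belong to 1 group. Genes under about 30 reads are limited by depth.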

Other observations

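Several members are chromosomal neighbours, given here by reads without division by length. On chromosome 8, Adam18, Adam3, Adam5, Adam32 and Adam9 follow one another between 24602246 and 25016922 (GRCm38). Adam9 had 21179, 9561, 4225 and 7407 reads in libraries 1 to 4, whereas Adam32 had at most 41, Adam5 at most 100, and Adam3 and Adam18 at most 11 and 5. On chromosome 16, Adamts1 and Adamts5 had 7740 and 8723 reads in library 1, but 13977 and 536 in library 4. On chromosome 9, the neighbours Adamts15 and Adamts8 had 146 and 38 reads in library 1 and 116 and 103 in library 4.

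Members took 1.41%, 1.53%, 1.30% and 1.23% of the reads on genes in libraries 1 to 4, and the TIMP genes alone 0.986%, 1.16%, 0.875% and 0.806%. Adam2, a sperm-egg fusion gene, and Adam3 each had 11 reads in library 2 and 0 to 2 in the others.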
